A study of Drosophila melanogaster with 4 samples.

Results

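Su(H) peaks were examined in the Antennapedia and bithorax complexes, the Hox gene clusters of Drosophila melanogaster on chromosome arm 3R. The members were the peaks that overlapped 3R from 2480000 to 2830000 (Antennapedia complex, 350 kb) or from 12480000 to 12810000 (bithorax complex, 330 kb), in FlyBase release 5 coordinates. There were 17 of them, 12 in the Antennapedia complex and 5 in the bithorax complex, of 3608 peaks on 3R and 14384 in the whole list. The peaks came from chromatin immunoprecipitation and sequencing (ChIP-seq) of Suppressor of Hairless in Kc167 cells, an established embryo-derived line that the labels give as female, of genotype se/e and of a late embryonic stage. There were 3 ChIP libraries, made with a rabbit polyclonal antibody against amino acids 259 to 594 of Su(H), and 1 input library of sheared chromatin. No treatment and no second condition is labelled, so all libraries describe the line as cultured. The authors deposited a single peak list that is not split by library. Peaks therefore carry no replicate error, depth is unknown, and the labelled line could not be checked against markers, since a peak list holds no expression.

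Hox genes encode homeodomain transcription factors that give each body segment its identity, and their order along the chromosome follows the order of the segments they act in. Once set in the embryo, their on and off states are maintained by trithorax and Polycomb proteins, and Polycomb proteins keep silent Hox clusters under long domains of repressive chromatin. Su(H) is the DNA-binding protein of the Notch pathway: with the Notch intracellular domain it activates target genes, and with Hairless it represses them.

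The 8 Hox genes fall into 5 of the Antennapedia complex and 3 of the bithorax complex. In the RefSeq gene table, which is of release 6 and was used for names and order only, the first group runs lab, pb, Dfd, Scr, Antp. The genes lab, pb and Dfd act in the head and mouthparts, Scr in the labial segment and the foremost thoracic segment, and Antp in the thorax. Other genes lie among them. Between lab and pb the table lists 8 protein-coding genes, Edg84A and a row of Ccp84A genes. Between pb and Dfd it lists zen, zen2 and bcd, homeobox genes that act in the early embryo outside segment identity, with Ama and CG34297. The microRNA gene mir-10 lies between Dfd and Scr, and the pair-rule gene ftz between Scr and Antp. The second group runs Ubx, abd-A, Abd-B. Ubx acts in the posterior thorax and the first part of the abdomen, abd-A in the anterior and middle abdomen, and Abd-B at the posterior end. The long noncoding RNA gene lncRNA:bxd lies between Ubx and abd-A, and mir-iab-4 and mir-iab-8 between abd-A and Abd-B. Positions were not converted between releases, so which of these genes each peak lies in or near was not analysed here.

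Su(H) peaks were sparse in both complexes, but the Antennapedia complex did not differ from its flanks by the test once peaks less than 1 kb apart were merged. Of the 17 members, 13 had scores above the list's median, whereas 56.6% of the peaks of 3R lay at or below it. Of these 13, 12 were narrower than the median 3R peak of similar score. The median width of all 17 members, 541 bp, was nevertheless above the 436 bp of 3R. Of all 17, 13 had no other peak within 1 kb, against 22.4% of the peaks of 3R. The score is the peak caller's own value per peak, as the authors deposited it. Of the scores in the list, 67.3% matched −log10 of a Poisson p-value of whole counts against a fixed background. From this background, an upper bound on the fold over background was derived for each peak. Weak peaks are those with a score of at most 16.1, the lower 50% of the whole list, and strong peaks those of at least 106.8, the upper 10%.

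In the Antennapedia complex, 9 of the 12 peaks lay within 80.7 kb near its middle, from 2594070 to 2674781. The highest of them (2645844 to 2646571) scored 206.53, for a fold of at most 3.89. It was followed, 1245 bp further on, by a peak (2647817 to 2648559) that scored 168.21, at most 3.55-fold. These were the strong peaks of the complex, and they ranked 220 and 254 among the 3608 peaks of 3R. A weak peak with a score of 9.51, from 2645175 to 2645378, lay 465 bp before the first of them.

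Ahead of this pair lay a second small group. The peak from 2617206 to 2617736 scored 79.13, at most 2.62-fold. A weak peak from 2617972 to 2618464, again with a score of 9.51, lay 235 bp behind it. Peaks with scores of 32.22 (2622204 to 2623048) and 25.47 (2624527 to 2625084) followed within a few kb. These 4 peaks and the 3 around the strong pair were the only members of the Antennapedia complex with another peak within 4 kb.

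The remaining 5 stood apart. The first peak of the complex, from 2594070 to 2594456, had a score of 55.83. The one from 2674299 to 2674781 had 42.55, and a weak one from 2719001 to 2719239 had 10.57. Then came 2733805 to 2734348 with a score of 68.08 and, at the far end, 2826319 to 2826859 with 60.32. Scores in this complex thus spanned the range from weak to strong, with the strong ones in a single pair.

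The bithorax complex held 5 peaks, each at least 6 kb from the next called peak. The first (12528419 to 12529005) scored 82.52, at most 2.66-fold. The next (12587321 to 12588143) scored 57.5, at most 2.35-fold. After a long empty stretch came 12724643 to 12725117, which scored 70.48, at most 2.52-fold. The highest peak of the complex (12759780 to 12760767) scored 140.38, at most 3.29-fold, and was the only strong one. The last peak, from 12807824 to 12808303, had a score of 15.32 and was the only weak one. Of the 5, 4 could thus reach 2-fold over background.

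**Figure D1:**
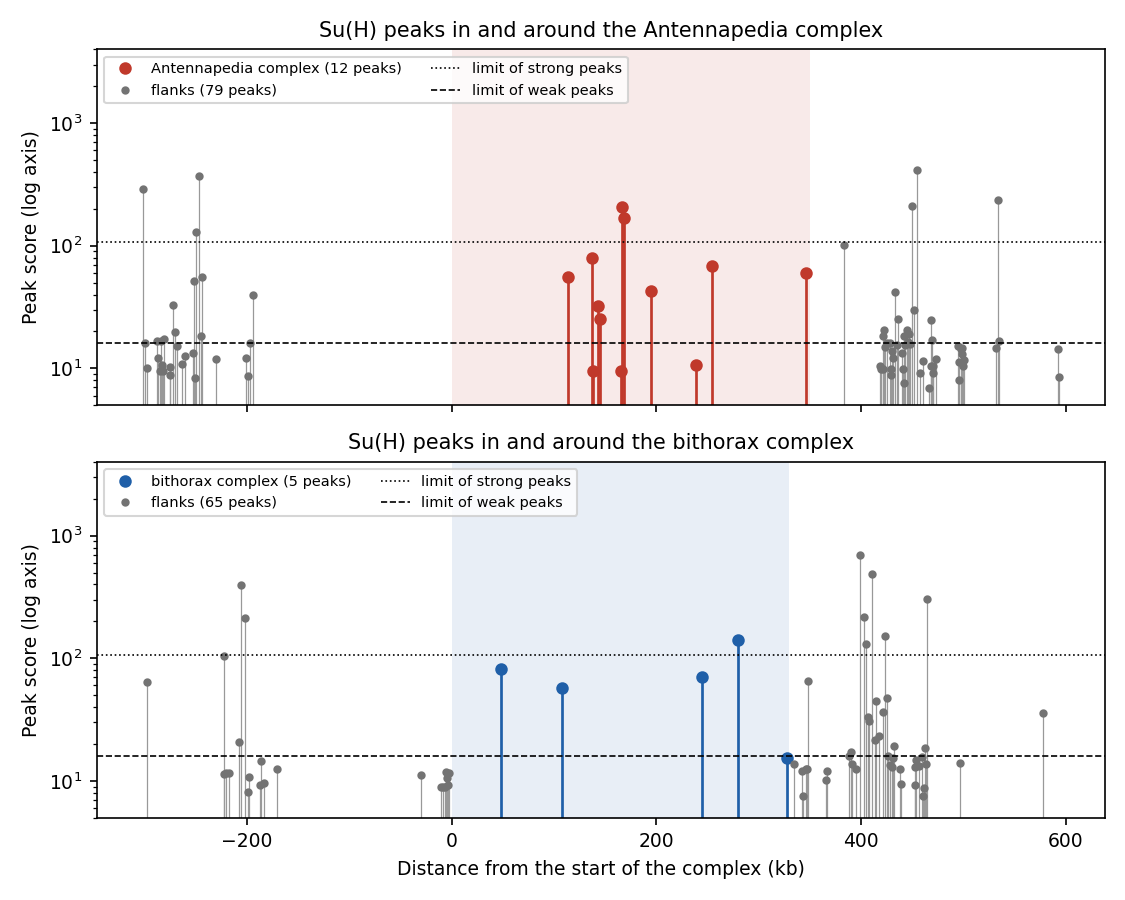
Score of each Su(H) peak (log axis) against the distance of its midpoint from the start of the complex in kb, for the Antennapedia complex (top) and the bithorax complex (bottom) with 300 kb on either side. Coloured points and shading mark the complexes and grey points the flanks; the 12 and 5 coloured peaks are few and mostly above the dashed limit of weak peaks at 16.1, while most of the 79 and 65 grey peaks lie in crowded groups below it.

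The limits of the complexes fell in different surroundings. On the left of the Antennapedia complex the first peak inside lay 114.1 kb past the limit, and the nearest one outside lay 193.3 kb away, at 2286077 to 2286697 with a score of 39.94. On its right, the last peak inside lay 3.1 kb before the limit and the next one outside 32.9 kb after it, with a score of 101.18. At the left limit of the bithorax complex the first peak inside lay 48.4 kb past it and a weak peak (score 11.5) lay 2.5 kb outside. On the right, weak peaks with scores of 15.32 and 13.65 lay 1.7 kb inside and 4.5 kb outside. Moving the right limit of the bithorax complex by a few kb would therefore change its count of weak peaks, whereas the peaks inside the Antennapedia complex would be the same with its left limit 100 kb further in or out.

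Both complexes had fewer peaks per Mb than the 300 kb on either side. The Antennapedia complex had 34.3 peaks per Mb (exact 95% Poisson interval 17.7 to 59.9), against 131.7 per Mb in its flanks (104.2 to 164.1, from 79 peaks). The ratio was 0.26 (two-sided exact binomial test, adjusted p = 6.3e-07 over the 2 complexes). The bithorax complex had 15.2 per Mb (4.92 to 35.4), against 108.3 in its flanks (83.6 to 138.1, from 65 peaks), a ratio of 0.14 (exact binomial test, adjusted p = 1.0e-07). Each flank had more peaks per Mb than its complex, with 96.7 on the left and 166.7 on the right of the Antennapedia complex. For the bithorax complex these values were 73.3 and 143.3. The peaks on the left of the Antennapedia complex were all in the outer 106.7 kb of that flank, however, and the 193.3 kb next to the complex held 0.

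Peaks lie in groups, so these p-values are too small, and the intervals cover counting error over peaks only. After peaks less than 1 kb apart were merged, the ratio for the bithorax complex was 0.28 and passed the test (exact binomial test, adjusted p = 0.010), whereas that for the Antennapedia complex was 0.57 and did not (adjusted exact binomial p = 0.14). Merging took the peaks of the Antennapedia complex to 10 and left those of the bithorax complex at 5. There were 1.2 peaks for each merged one in the Antennapedia complex and 1 in the bithorax complex, against 2.31 on the whole of 3R.

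The lowest ratios were those of weak peaks. The Antennapedia complex held 3 weak peaks, against 49 in its flanks, a ratio per Mb of 0.10 (exact binomial test, adjusted p = 3.2e-07). The bithorax complex held 1, against 42, a ratio of 0.043 (exact binomial test, adjusted p = 3.2e-07). Among peaks above the weak limit the ratios were 0.51 from 9 against 30 peaks and 0.32 from 4 against 23, and neither passed (adjusted exact binomial p = 0.096 and 0.052). Strong peaks numbered 2 against 6 (ratio 0.57) and 1 against 8 (ratio 0.23), which did not pass either (adjusted exact binomial p = 0.72 and 0.34). By share, weak peaks made up 25% of the peaks in the Antennapedia complex (exact 95% binomial interval 5.49% to 57.2%) and 62.0% of those in its flanks. In the bithorax complex they made up 20% (0.505% to 71.6%), against 64.6% in its flanks. On all of 3R 56.6% of peaks were weak. The difference in share did not pass the threshold in either complex (Fisher's exact test, adjusted p = 0.052 and 0.069). A separate loss of weak peaks, beyond the lower number of all peaks, was therefore not established. This test and that of weak peaks per Mb were added after the values were seen. The p-values for weak peaks also treat grouped peaks as independent and are too small. Weak peaks were not tested after merging.

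Strong peaks made up 2 of 12 and 1 of 5, against 9.12% of the peaks of 3R, and with counts this small the shares cannot be told from that background. Peaks that could reach 2-fold over background made up 7 of 12 in the Antennapedia complex and 4 of 5 in the bithorax complex. On 3R as a whole 17.6% could, and sparse windows were not compared for this share. The bound on the fold follows from the score alone, so this share is not a property separate from the score. The median score was 49.2 in the Antennapedia complex, against 14.7 in its flanks, and 70.5 in the bithorax complex, against 13.7 in its flanks. The highest scores, however, lay outside. The maximum was 206.53 in the Antennapedia complex, against 415.55 in its flanks, and 140.38 in the bithorax complex, against 692.64 in its flanks. On 3R the highest score was 1270.81.

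Next, each complex was set beside all windows of its own length on 3R, taken every 10 kb and not overlapping it. Of 2685 windows of 350 kb, 226 (8.42%) had as few peaks as the 12 of the Antennapedia complex, and the median window held 42. Of 2691 windows of 330 kb, 58 (2.16%) had as few as the 5 of the bithorax complex, and the median window held 40. Overlapping windows share peaks, so these percentages describe the arm and carry no p-value. The windows as poor as the Antennapedia complex lay at 15 places along 3R that do not overlap each other, and those as poor as the bithorax complex at 10. Each of these sets includes a run over the other complex, with 20 windows over the bithorax complex among the first and 8 over part of the Antennapedia complex among the second. Neither complex was the emptiest stretch of the arm, since the lowest counts were 2 peaks in 350 kb and 0 in 330 kb. The shares rose when groups of peaks were merged, to 19.5% of windows for the Antennapedia complex and 7.73% for the bithorax complex. With the upper 50% of scores they were 24.3% and 7.17%.

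Weak peaks were few against all windows, but less unusual beside windows with as few peaks or fewer. Windows with as few as 3 weak peaks made up 3.05% of those of 350 kb, where the median was 24. Windows with at most 1 weak peak made up 1.41% of those of 330 kb, where the median was 22. Among the 226 windows with at most 12 peaks, however, 36.3% had as few weak peaks as the Antennapedia complex. Among the 57 windows with 1 to 5 peaks, 54.4% had as few as the bithorax complex. Both sets include windows with fewer peaks than the complex, which leave less room for weak ones. Windows with exactly the same number of peaks were not compared. Counts of strong peaks were less unusual, with 31.9% of windows at or below 2 (median 4) and 17.4% at or below 1 (median 3). The sequence covered by peaks was 6296 bp in the Antennapedia complex, against a median window of 31729 bp, and 4.62% of windows had as little. In the bithorax complex it was 3353 bp, against a median of 29643 bp, with 2.19% of windows as low. As a share of length, peaks covered 1.80% of the Antennapedia complex, against 8.18% of its flanks, and 1.02% of the bithorax complex, against 8.83% of its flanks.

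**Figure D2:**
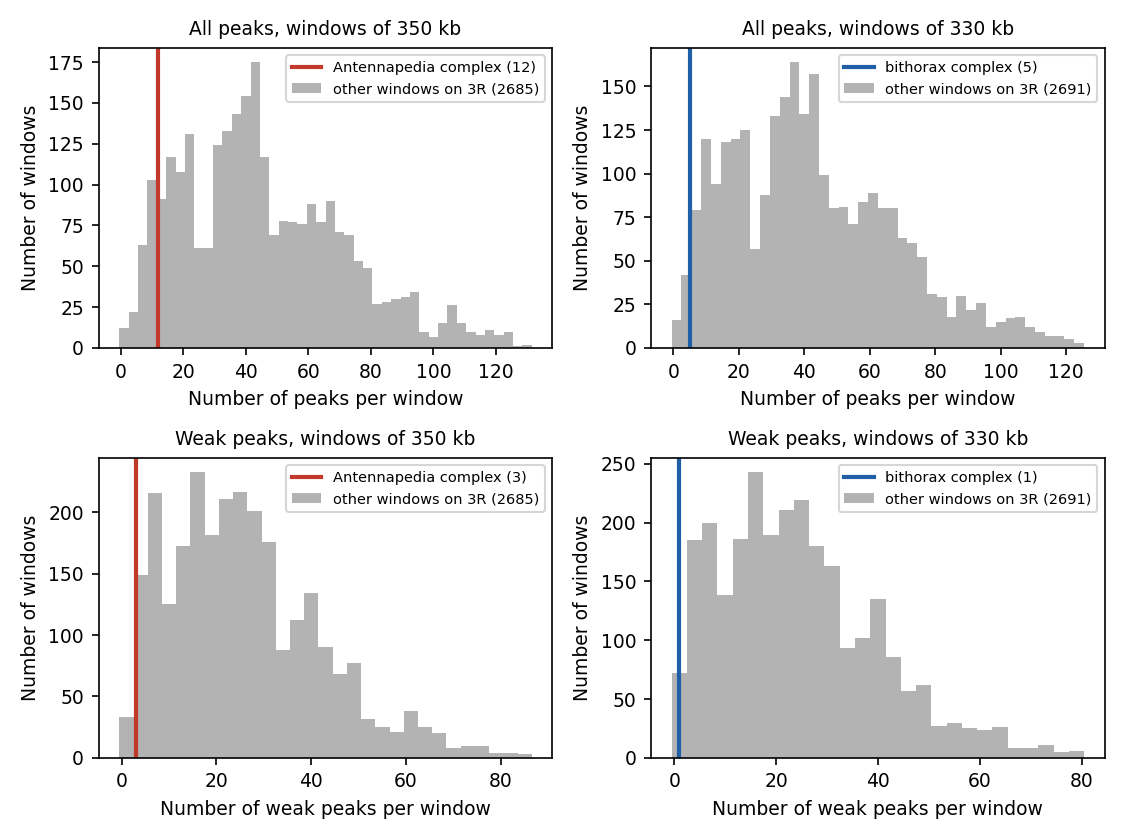
Number of windows on 3R (vertical axis) by the number of Su(H) peaks (top row) or weak peaks (bottom row) they hold, for windows of 350 kb (left) and 330 kb (right). Coloured lines mark the Antennapedia complex, with 12 peaks of which 3 weak, and the bithorax complex, with 5 peaks of which 1 weak; all 4 lines stand at the low end of the grey windows.

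The median score placed the complexes at the other end of the arm. Only 1.12% of the 350 kb windows had a median score as high as the 49.2 of the Antennapedia complex, and 0.632% of the 330 kb windows with a peak reached the 70.5 of the bithorax complex. The median over windows was 14.9 for both lengths. Windows with few peaks had more variable and often higher medians. Among the 226 windows with at most 12 peaks, 13.3% had a median score as high as the Antennapedia complex, and the middle window had 17.1. Among the 57 windows with 1 to 5 peaks, 15.8% had a median as high as the bithorax complex, and the middle window had 32.2. Set beside windows with as few peaks or fewer, the complexes were therefore above the middle but not outside the range, which reached 156.22 for both lengths. Among windows of 350 kb this value came with 5 peaks, fewer than the 12 of the Antennapedia complex. Median scores were not compared at the same number of peaks.

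**Figure D3:**
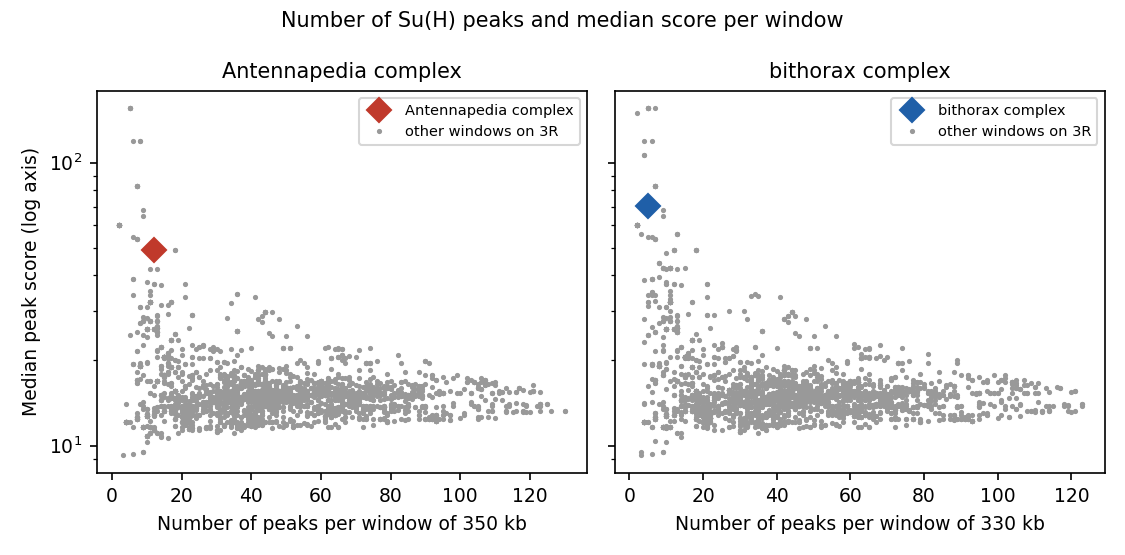
Median peak score (log axis) against the number of peaks, per window of 350 kb (left) and 330 kb (right) on 3R, with each complex as a coloured diamond and the other windows as grey points. The diamonds, at 12 peaks with a median of 49.2 and 5 peaks with a median of 70.5, lie in the sparse, high-scoring corner, away from the bulk of windows near a median of 14.9.

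Long stretches of both complexes held no called peak. The longest in the bithorax complex ran between the peaks ending at 12588143 and starting at 12724643, 136.5 kb, and was the 27th longest of 3607 gaps between neighbouring peaks of 3R. The median gap on the arm was 0.736 kb and the longest 336.7 kb. Gaps of 58.3 kb and 47.1 kb separated other peaks of the bithorax complex. In the Antennapedia complex the longest gap between 2 members was 92.0 kb, between 2734348 and 2826319, and the 58th longest of the arm. A longer one lay across its left limit, from 2286697 to 2594070. At 307.4 kb it was the third longest of 3R, and 114.1 kb of it lay inside the complex. The left part of the Antennapedia complex was thus without any called peak, and so was the adjacent 193.3 kb of the left flank. No peak was called there, which at unknown depth does not show that Su(H) was absent.

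No member was wide, and those above the weak limit were mostly narrow for their score. All 17 were under 1 kb wide, whereas 17.9% of 3R peaks were 1 kb or wider. Their widths ran from 204 to 988 bp, and their median of 541 bp was above the 436 bp of 3R. The median width was 536 bp in the Antennapedia complex, against 441 bp in its flanks. In the bithorax complex it was 587 bp, against 449 bp in its flanks. Width grows with score, so each member was set beside the other 3R peaks within 25% of its score. Of the 13 members above the weak limit, 12 were narrower than the median of such peaks. The exception was the peak with a score of 32.22, which was 845 bp wide against a median of 789 bp. The highest member, 728 bp wide, was narrower than all 88 peaks of similar score, whose median width was 1989 bp. The next, 743 bp wide, stood beside 86 peaks with a median of 1941 bp, of which 1.16% were as narrow. The strong peak of the bithorax complex was 988 bp wide, against a median of 1917 bp among 79 peaks of similar score, of which 19.0% were as narrow. Among the members with weak scores there was no such leaning. The peak of 493 bp with a score of 9.51 was wider than the median of 283 bp, and that of 480 bp with a score of 15.32 was wider than 395 bp, while the other 2 weak peaks, 204 and 239 bp wide, were narrower than medians of 283 and 296 bp.

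All 3 strong members were under 1 kb wide, a width that 7.60% of the 329 strong peaks of 3R had. The other 326 strong peaks of the arm had a median width of 2409.5 bp, with 50% of them between 1644.5 and 3388.75 bp. Of the 17 members, 13 had no other peak within 1 kb, against 22.4% of the peaks of 3R. Of the 3 strong members 2 were alone in this sense, and the highest, with a weak peak 465 bp before it, was not. Strong peaks outside the complexes that were alone had a median width of 1546 bp, and 15 of these 77 (19.5%) were under 1 kb. The width and solitude of the members were looked at after the map of peaks had been seen and were not tested. Solitude was not compared with sparse windows, so it cannot be told apart from the low number of peaks.

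**Figure D4:**
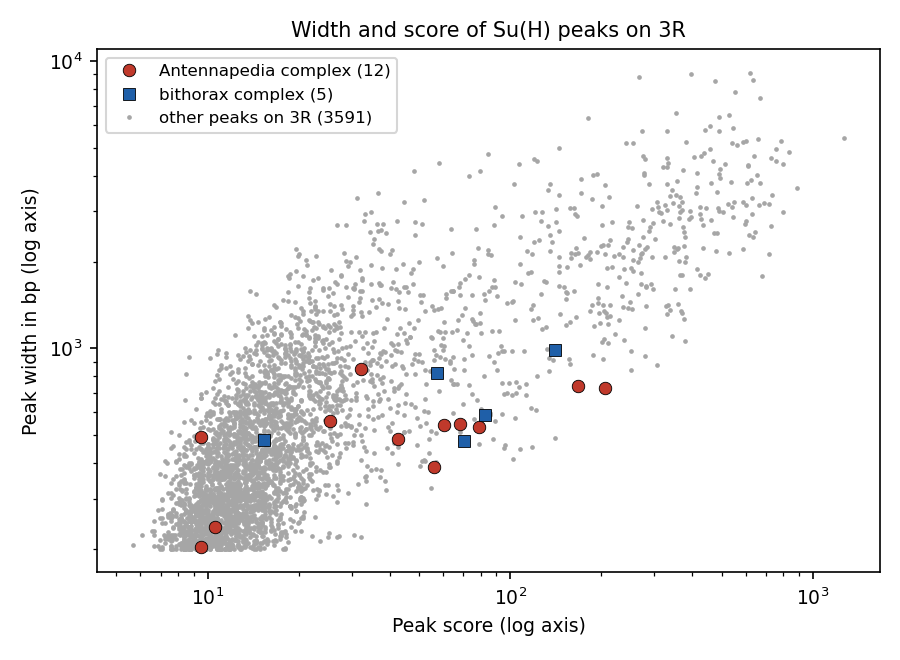
Width in bp against score (both log axes) of the peaks on 3R, with the 12 members of the Antennapedia complex as circles, the 5 of the bithorax complex as squares and the other 3591 peaks as grey points. Above the weak limit of 16.1, 12 of the 13 coloured points are narrower than the median of peaks of similar score.

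The background used by the caller was compared as well. A peak scored against the genome-wide background, and not against a raised local one, has a score on the ladder of values that whole counts over this background give. All 12 members of the Antennapedia complex were on the ladder, against 88.6% of the peaks in its flanks, and 4 of 5 in the bithorax complex, against 86.2% in its flanks. On 3R 76.6% were. The exception was the bithorax peak with a score of 57.5. The intervals for the complexes are wide (exact 95% binomial interval 73.5% to 100% and 28.4% to 99.5%), and no difference from the flanks can be read from them. Nothing in the list gives the input level where no peak was called, so whether the sparse stretches differ in input was not tested.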

How the data were processed

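The authors deposited 1 list of peaks for the series, with a start, an end and a score per peak. Per the file headers, coordinates are FlyBase release 5 and the source is MACS. Per the submitters' processing notes, MACS2, BWA, BDGP5 and CASAVA (1.7.0.2, 1.7.0.3) were used in roles not stated. The calling threshold and the depth were not given in the sources used here, nor were the libraries behind the list. Cells were fixed in 1.8% formaldehyde for 15 minutes, per the labels' protocols.

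The deposited score was matched to −log10 of Poisson tails of whole counts by searching for the background mean that put most scores on such a ladder. The best mean was 195.9, with 67.3% of scores within 0.0075 of a value; at a mean lower by 3 it was 6.96%. The count implied by a score, divided by this mean, is the fold over background, an upper bound where a raised local background was used. The fit was checked on simulated scores, and the density test on simulated peaks placed at random and independently along the arm. Grouped peaks were not simulated, so that check does not cover the grouping of the real peaks.

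Peaks were counted where they overlapped a region by at least 1 base. Counts were compared with flanks by two-sided exact binomial tests, with Benjamini-Hochberg adjustment over the 2 complexes. Named peaks were to be the 5 highest, the widest and those at the ends of each complex and of its longest gap; as members were few, all are given. The planned scan of promoters was not run, as no sequence was used here. The members, lists and tests were chosen with earlier results of these data known. SciPy 1.17.1, NumPy 2.4.6, pandas 2.3.3 and matplotlib 3.10.9 ran under Python 3.11.15.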

Additional observations from a re-analysis of the deposited data

How the results depend on the processing

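Both complexes had fewer peaks per Mb than their flanks under all 9 alternatives. The ratio for the Antennapedia complex no longer passed the exact binomial test with the upper 50% of scores (0.51, adjusted p = 0.096), the upper 10% (0.57, adjusted p = 0.72) or merged peaks (0.57, adjusted p = 0.14). That for the bithorax complex no longer passed the exact test with the upper 50% (0.32, adjusted p = 0.052) or the upper 10% (0.23, adjusted p = 0.34). These settings leave fewer peaks to test, and their ratios were also higher than the 0.26 and 0.14 of all peaks. Why they did not pass was not tested. With flanks of 100 kb or 1 Mb, either flank alone, midpoints, or the lower 50% of scores (added after the data were seen), both passed, with ratios of 0.10 to 0.45 and 0.043 to 0.21. All 26 peaks in the 100 kb flanks of the Antennapedia complex lay on its right, and the 100 kb on its left held 0. Windows as poor as the Antennapedia complex made up 24.3% with the upper 50% of scores, 19.5% with merged peaks, 11.7% of windows that do not overlap, and 3.05% with the lower 50%. For the bithorax complex these were 7.17%, 7.73%, 1.22% and 1.41%. The cause was not tested. The longest gaps between members were the same with the upper 50% of scores and with merged peaks. The median scores, under alternatives added later, were 42.5 to 58.1 in the Antennapedia complex and 64.0 to 70.5 in the bithorax complex. No paired analysis was possible because peaks are not split by library, and for the same reason no replicate could be left out. Depth is unknown, so an absent peak is not absent binding.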
